A study of Mus musculus with 11 samples.

Results

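The 10 genes described here encode dopamine and noradrenaline receptors of the mouse and were chosen by name, as receptor genes of these transmitters, from the 53465 genes of the count files. They are the dopamine receptor genes Drd1, Drd5, Drd2 and Drd4, the alpha1-adrenergic receptor genes Adra1a, Adra1b and Adra1d, the alpha2-adrenergic receptor genes Adra2a and Adra2c, and the beta1-adrenergic receptor gene Adrb1. Their messenger RNA was sequenced in CRF1-expressing neurons of the medial prefrontal cortex (mPFC CRF1+ neurons), a population that carries the type 1 receptor of the stress peptide corticotropin-releasing factor. The neurons were sorted by fluorescence from adult male CRF1:GFP reporter mice, 1 mouse per library. The sort collected GFP-positive neurons of the whole dissected mPFC, so no cortical layer was selected and a library mixes all cell types in which the reporter is active. The naïve group (n = 6) had no ethanol, and the withdrawn group (n = 5) had been through chronic intermittent ethanol vapor, which produces dependence, followed by forced abstinence. Both groups carried the same reporter transgene. The question behind the comparison is which genes differ in these neurons after withdrawal from chronic ethanol.

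Dopamine and noradrenaline reach the prefrontal cortex from the ventral tegmental area and the locus coeruleus. Receptors of the D1-like class (Drd1, Drd5) and beta-adrenergic receptors couple to Gs or Golf and raise cyclic AMP, receptors of the D2-like class (Drd2, Drd4) and alpha2-adrenergic receptors couple to Gi or Go and lower it, and alpha1-adrenergic receptors couple to Gq and act through phospholipase C. In the prefrontal cortex these receptors are known for their part in working memory, arousal and the response to stress.

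The libraries held 7351567 to 22244869 counts assigned to genes. On these totals 3 counts, taken as the limit of detection, were worth 0.135 to 0.408 CPM (counts scaled to the same library total in every mouse). The CPM values below use normalized library sizes, on which 3 counts in withdrawn mouse 4 were worth 0.369 CPM. The limit of 3 counts covers counting error only, since reads without molecular identifiers are not independent molecules. The sorted cells were checked with Crhr1, the gene of the sorted receptor, which averaged 92.7 ± 21.5 CPM in the naïve group (SD, n = 6) and 89.3 ± 33.6 CPM in the withdrawn group (SD, n = 5). Slc17a7, the vesicular glutamate transporter of cortical pyramidal neurons, stood at 1435 ± 346.0 and 1362 ± 447.4 CPM, and Gad2, an enzyme of GABA synthesis, at 39.9 ± 21.5 and 57.5 ± 47.3 CPM. The summed level of 8 markers of GABAergic interneurons ranged from 78.2 to 1110 CPM among naïve and from 30.7 to 673 CPM among withdrawn mice. That of 6 fibroblast markers had a median of 15.4 CPM in naïve and 672 CPM in withdrawn mice. For 6 astrocyte markers these medians were 52.0 and 378 CPM, and for 6 endothelial markers 122 and 44.1 CPM. Of 5 astrocyte markers tested, 2 were higher in withdrawn mice. The libraries include no GFP-negative cells for comparison. The part of such other cells in the receptor values was not tested. The labels conflict for 3 withdrawn mice (3, 4 and 5), whose titles read withdrawn and whose source names read control, and results were recomputed without them. The design text of the series counts 5 control and 6 ethanol mice, which differs from the 6 and 5 that the titles give. The share of tallied reads outside exons ran from 5.77% to 48.1%, with the highest in withdrawn mouse 4.

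At the RNA level, none of the 10 receptor genes passed the thresholds of the comparison between withdrawn and naïve mice (log2 fold change beyond 0.6 in either direction with an adjusted p no higher than 0.05, edgeR quasi-likelihood test with Benjamini-Hochberg adjustment). All 10 had enough counts to be tested. Of the 17093 genes tested, 1 passed the same thresholds, or 0.00585%. None of the 10 reached an unadjusted p under 0.05, against 7.22% of all genes. With DESeq2, which called 362 of the 41907 genes with a count (0.864%), none of the 10 was called and Drd5 was the 1 with an unadjusted p under 0.05. For none of the 10 were the groups fully separated in log2 CPM, against 0.948% of all genes. Of the 10 fold changes, 5 were above 0 and 5 below, with a median log2 value of -0.15 beside 0.02 over all genes tested. With the 3 mice of conflicting labels left out, log2 fold changes were 2.29 for Drd5, 0.26 for Drd4, -0.70 for Adra1a, -0.29 for Adra1b, -0.92 for Adra1d, -1.17 for Adra2a, -0.95 for Adra2c and 0.50 for Adrb1, again with none of the 10 genes past the thresholds; the values of Drd1 and Drd2 are given with these genes. In sorted cells pooled per mouse, fewer cells that express a gene and less RNA per cell cannot be told apart.

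**Figure D1:**
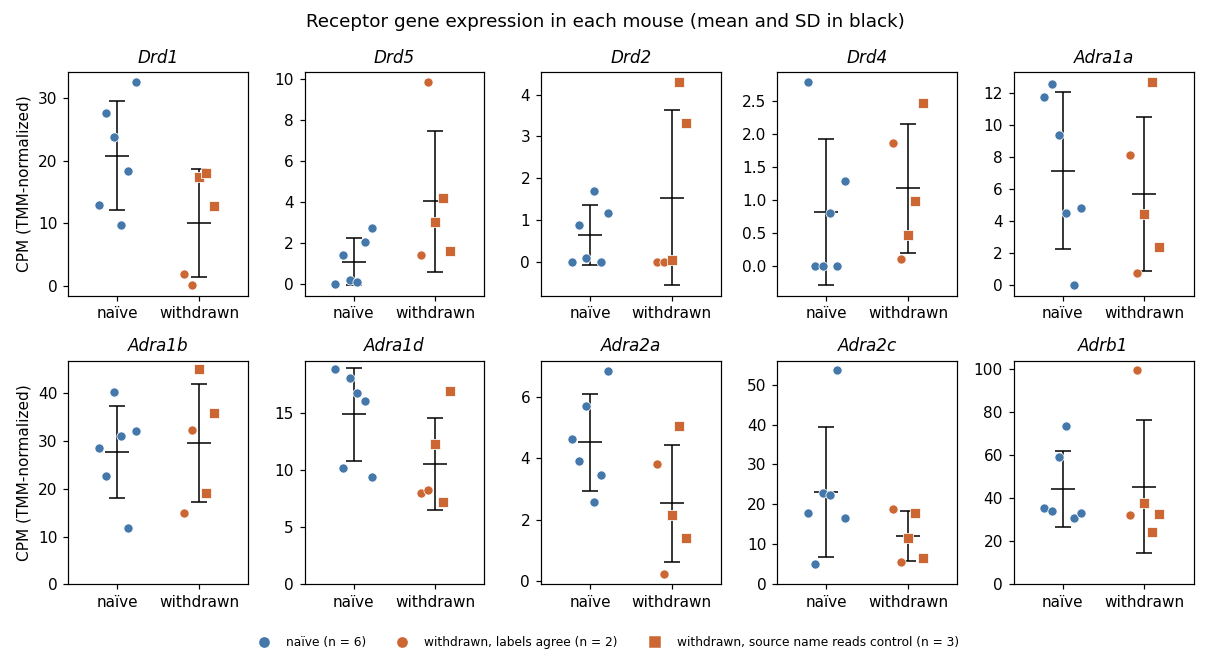
CPM of the 10 receptor genes (vertical axis, its own scale in each panel) in each of the 6 naïve (blue) and 5 withdrawn mice (orange). Squares are the 3 withdrawn mice with conflicting labels, and black marks give the mean ± SD of each group. The groups overlap in every panel, and for Drd1 the 2 withdrawn mice at 1.87 and 0.11 CPM lie below all naïve mice.

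The sequences just before the RefSeq starts are shown for the genes with the highest and the lowest mean level per exonic length in these neurons, Adrb1 and Drd4. They give the receptors their genomic context. RefSeq promoters (GRCm38.p6) matched 8 of the 10 genes. Each sequence is the plus strand of the 250 bases before the RefSeq start, at chr19:56721867-56722116 for Adrb1 and chr7:141291768-141292017 for Drd4, and capitals mark the GC box GGGCGG or its complement CCGCCC.
Adrb1: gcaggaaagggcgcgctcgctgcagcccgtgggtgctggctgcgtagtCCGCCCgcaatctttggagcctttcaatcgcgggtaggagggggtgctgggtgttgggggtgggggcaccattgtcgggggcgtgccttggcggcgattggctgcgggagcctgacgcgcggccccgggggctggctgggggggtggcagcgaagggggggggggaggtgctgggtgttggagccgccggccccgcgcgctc
Drd4: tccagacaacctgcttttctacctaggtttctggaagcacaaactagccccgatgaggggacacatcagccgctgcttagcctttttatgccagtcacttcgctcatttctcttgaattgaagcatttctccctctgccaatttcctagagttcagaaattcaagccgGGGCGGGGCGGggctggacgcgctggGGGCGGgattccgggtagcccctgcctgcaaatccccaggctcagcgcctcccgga
The Adrb1 window held 74% G or C, 24 CpG pairs and 1 GC box, and the Drd4 window 56.8%, 12 CpG pairs and 3 GC boxes. The 8 matched genes have 10 such windows, of which 7 held a GC box on either strand, beside 32.7% of all 32851 mouse promoter windows of the same length. Of the 10 windows, 7 held 10 or more CpG pairs, beside 37.8% of all promoter windows. The letters TGACG, part of the site bound by the cyclic AMP response element binding protein, or their complement were in the windows of Adrb1 and Adra2a, or 2 of 10, beside 17.8% of all windows. RefSeq starts differ from the GENCODE gene bounds printed below. The Adra2a window, 54045009 to 54045258, lay wholly within the single GENCODE exon of its gene. The windows of Adra2c, Drd5, Drd1 and Drd4 and 1 of Adra1b also lay wholly or partly within their genes. These windows are thus not all sequence before a GENCODE start. The matches describe the letters of the windows and say nothing of binding in these cells.

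Drd1, the main Gs- and Golf-coupled dopamine receptor, was the most abundant dopamine receptor in 9 of 11 mice by CPM per kb of exon. The gene (ENSMUSG00000021478, chromosome 13, 54051183 to 54055705, minus strand, GRCm38 as for all genes below) has its coding sequence in a single exon block. In naïve mice its level ran from 9.78 to 32.5 CPM with a median of 21.0 CPM. Withdrawn mice 1 to 5 had 1.87, 0.11, 17.5, 18.1 and 12.7 CPM. The first 2 of these, whose labels agree, rested on 26 reads and 1 read and were lower than every naïve mouse, while the 3 mice with conflicting labels were inside the naïve range. Over all mice the naïve mean was 20.8 ± 8.76 CPM (SD, n = 6), and the withdrawn mean was 10.1 ± 8.55 CPM (SD, n = 5). The log2 fold change was -1.05 with a standard error (SE) of 0.78 and a 95% interval of -2.72 to 0.62 (edgeR adjusted p = 0.857). Without the 3 mice whose labels conflict, which leaves 6 naïve and 2 withdrawn mice, it was -4.36 with an unadjusted p of 0.00132 and an edgeR adjusted p of 0.640. The fitted size of the Drd1 difference thus depended on the mice with conflicting labels, and it passed the threshold in neither fit.

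Drd5, the other Gs-coupled dopamine receptor, was low. Its transcript is a single exon (ENSMUSG00000039358, chromosome 5, 38319367 to 38322518, plus strand). Its level in naïve mice ran from 0 to 2.72 CPM with a median of 0.81 CPM. Values in withdrawn mice 1 to 5 were 1.44, 9.85, 3.04, 4.18 and 1.63 CPM. Every withdrawn mouse had Drd5 reads above the limit of detection, and 3 of 6 naïve mice were under it. The naïve mean was 1.08 ± 1.15 CPM (SD, n = 6), the withdrawn mean 4.03 ± 3.44 CPM (SD, n = 5), and the log2 fold change was 1.88 (SE 1.05, interval -0.38 to 4.13, edgeR adjusted p = 0.780). With DESeq2 the log2 fold change was 1.92 with an unadjusted p of 0.0446 and a DESeq2 adjusted p of 0.453. Without withdrawn mouse 2, which had the highest level, the edgeR log2 fold change was 1.20. Drd5 shares 1531 of its 3152 exonic bases with Gm26560 on the opposite strand, which had 0 to 26 counts, and no source used here states whether counting used strand, so reads of the pair may not be separable. The level of Drd5 per kb of exon, given below, divides by all 3152 bases, the shared ones included.

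The D2-like genes were near the limit of detection. Drd2 (ENSMUSG00000032259, chromosome 9, 49340627 to 49408177, plus strand), which encodes the target of classical antipsychotic drugs, ranged from 0 to 1.69 CPM in naïve mice with a median of 0.49 CPM. Across withdrawn mice 1 to 5 the levels were 0, 0, 0.05, 4.30 and 3.32 CPM. The 2 highest values were both in mice with conflicting labels, and 3 mice of each group were under 3 counts. The log2 fold change of 1.22 (SE 1.52, interval -2.03 to 4.48, edgeR adjusted p = 0.928) turned negative without the 3 mice with conflicting labels, at -6.17, where both withdrawn mice left had 0 Drd2 reads, so this fitted value is no measured bound. Drd4 (ENSMUSG00000025496, chromosome 7, 141292006 to 141296464, plus strand), known from cortical neurons, ranged from 0 to 2.79 CPM with a median of 0.41 CPM in naïve mice. In withdrawn mice 1 to 5 it was 1.87, 0.11, 0.47, 0.98 and 2.48 CPM. The log2 fold change of Drd4 was 0.55 (SE 1.32, interval -2.29 to 3.39, edgeR adjusted p = 0.966). Leaving out 1 mouse gave 0.078 (without withdrawn mouse 5) to 1.46 (without naïve mouse 1) for Drd4, and 0.40 for Drd2 without withdrawn mouse 4. Both intervals reach far to either side of 0. Drd3, the remaining D2-like gene, had at most 4 counts in any mouse and was not tested.

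Among the 4 tested dopamine receptor genes, the make-up differed between mice. Drd1 made up 74.1% to 98.5% of their summed CPM per kb of exon in naïve mice. In withdrawn mice 1 to 5 its share was 33.8%, 0.967%, 81.1%, 60.1% and 57.9%. In withdrawn mouse 2 Drd5 made up 98.0% of the sum. The shares overlap between groups through withdrawn mouse 3, and a share over 4 genes moves when any 1 of them does.

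**Figure D2:**
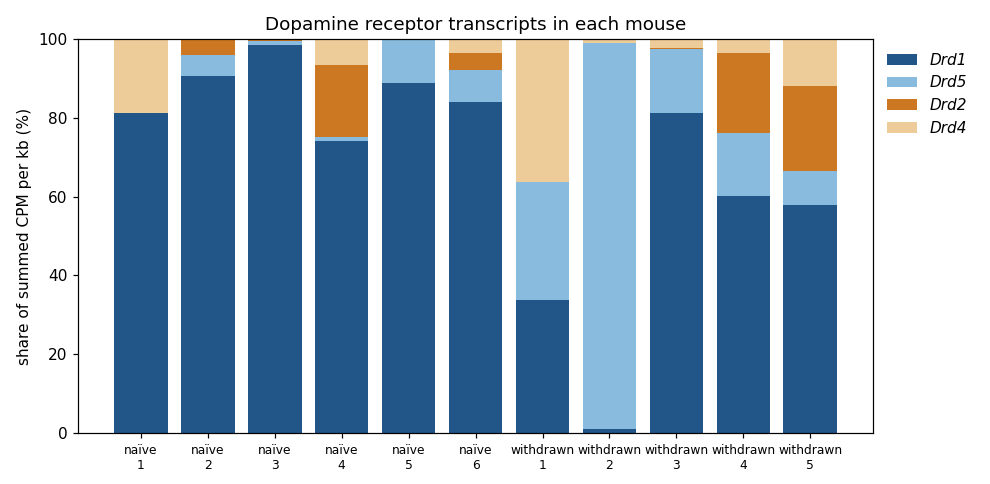
Share of the summed CPM per kb of exon (vertical axis, percent) taken by Drd1, Drd5, Drd2 and Drd4 in each mouse (bars). Drd1 takes at least 74.1% in each naïve mouse, and 0.967% in withdrawn mouse 2, where Drd5 takes 98.0%.

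The Gq-coupled alpha1 receptors were represented by all of their genes. Adra1b (ENSMUSG00000050541, chromosome 11, 43774606 to 43901210, minus strand) ranged from 11.9 to 40.1 CPM in naïve mice with a median of 29.8 CPM. Withdrawn mice 1 to 5 had 14.9, 32.3, 45.1, 19.2 and 35.8 CPM. Withdrawn mouse 3 lay above all naïve mice and the other 4 within their range. Its log2 fold change was 0.09 (SE 0.35, interval -0.67 to 0.85, edgeR adjusted p = 0.980). Adra1d (ENSMUSG00000027335, chromosome 2, 131545850 to 131562283, minus strand) ranged from 9.39 to 18.9 CPM in naïve mice with a median of 16.4 CPM. Values in withdrawn mice 1 to 5 were 8.00, 8.28, 12.3, 7.25 and 16.9 CPM, so that 3 withdrawn mice lay below all naïve mice and 2 within their range. Its log2 fold change was -0.50 (SE 0.38, interval -1.31 to 0.31, edgeR adjusted p = 0.863). Adra1d shares 147 of its 1899 exonic bases with Gm14285 on the other strand, which had 4 to 37 counts.

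Adra1a (ENSMUSG00000045875, chromosome 14, 66635251 to 66771168, plus strand), the third alpha1 gene, was lower and more variable. It ranged from 0 to 12.5 CPM in naïve mice with a median of 7.10 CPM. Across withdrawn mice 1 to 5 the levels were 8.14, 0.78, 4.44, 12.7 and 2.41 CPM. Naïve mouse 5, with 0 Adra1a reads, had the lowest summed level of the 8 interneuron markers in its group, 78.2 CPM, and the fewest genes detected of all libraries, 15585. Withdrawn mouse 3 had an even lower marker sum of 30.7 CPM with 4.44 CPM of Adra1a, and withdrawn mouse 2 a sum of 673 CPM with 0.78 CPM. The part of interneurons in the Adra1a values was not tested, beyond a fit with a GABAergic score as a covariate. That score is the mean log2 CPM of the 8 markers, not their sum. The log2 fold change was -0.33 (SE 0.97, interval -2.42 to 1.75, edgeR adjusted p = 0.972) and 0.25 with that covariate, and neither value passed the threshold. Leaving out 1 mouse gave -0.86 (without withdrawn mouse 4) to -0.063 (without withdrawn mouse 2).

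The alpha2 receptors Adra2a and Adra2c couple to Gi and Go, and Adra2a is the target of the prefrontal action of guanfacine. Adra2a (ENSMUSG00000033717, chromosome 19, 54044151 to 54048982, plus strand) ranged from 2.56 to 6.85 CPM in naïve mice with a median of 4.26 CPM. In withdrawn mice 1 to 5 it was 3.82, 0.22, 2.15, 5.04 and 1.41 CPM, with 3 of them below all naïve mice. The value of withdrawn mouse 2 rested on 2 reads, under the limit of detection. The log2 fold change of Adra2a was -0.84 (SE 0.72, interval -2.37 to 0.70, edgeR adjusted p = 0.877). When single mice were left out it ran from -1.25 (without withdrawn mouse 4) to -0.56 (without withdrawn mouse 2). Adra2c (ENSMUSG00000045318, chromosome 5, 35278319 to 35281763, plus strand) was the more abundant of the pair and ranged from 5.22 to 53.6 CPM in naïve mice with a median of 20.2 CPM. Withdrawn mice 1 to 5 had 18.9, 5.60, 11.6, 17.8 and 6.58 CPM. All 5 lay within the naïve range, and the highest naïve value, that of naïve mouse 5, stood apart from the others. The naïve mean was 23.1 ± 16.2 CPM (SD, n = 6), the withdrawn mean 12.1 ± 6.16 CPM (SD, n = 5), with a log2 fold change of -0.93 (SE 0.53, interval -2.06 to 0.20, edgeR adjusted p = 0.780) and of -0.49 without naïve mouse 5.

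Adrb1, which encodes the Gs-coupled beta1-adrenergic receptor (ENSMUSG00000035283, chromosome 19, 56722199 to 56733113, plus strand), had the highest mean level of the 10 genes. It ranged from 30.7 to 73.6 CPM in naïve mice with a median of 34.7 CPM. Values in withdrawn mice 1 to 5 were 32.1, 99.8, 37.9, 24.6 and 33.0 CPM. Withdrawn mouse 2 was higher and withdrawn mouse 4 lower than every naïve mouse, and the other 3 lay within the naïve range. The naïve mean was 44.4 ± 17.7 CPM (SD, n = 6), the withdrawn mean 45.5 ± 30.8 CPM (SD, n = 5), with a log2 fold change of 0.03 (SE 0.37, interval -0.77 to 0.83, edgeR adjusted p = 0.992). Without withdrawn mouse 2 it was -0.48, and its sign also turned on leaving out naïve mouse 1, 2, 5 or 6, at -0.015 to -0.043.

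**Figure D3:**
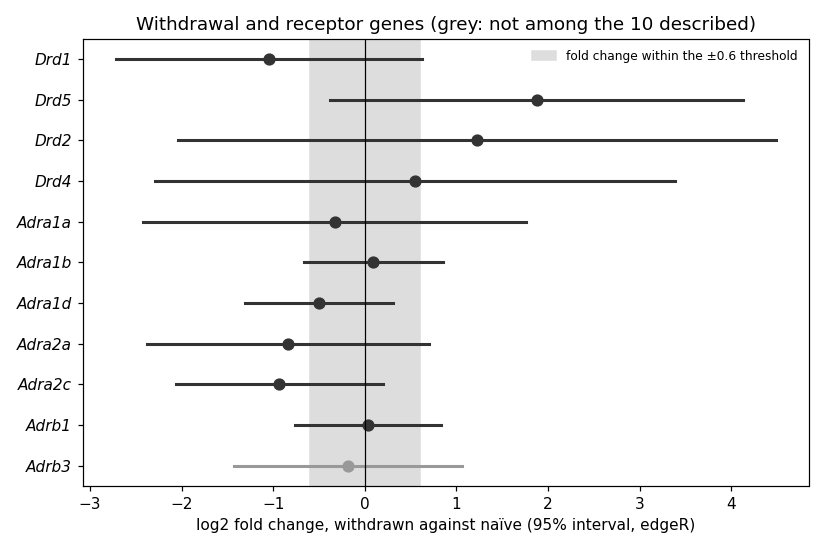
Log2 fold change of withdrawn against naïve mice (horizontal axis, points) with 95% intervals from edgeR (lines) for the 10 receptor genes in black and for Adrb3 in grey. The grey band marks changes within 0.6. All 10 black intervals include 0, and they are narrowest for Adra1b, Adrb1 and Adra1d and widest for Drd2 and Drd4.

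Levels of different genes were compared per exonic length, as CPM per kb of exon averaged over all 11 mice. Adrb1 led at 13.3 ± 6.84 (SD, n = 11), followed by Adra1b at 8.42 ± 3.07, Adra1d at 6.80 ± 2.36, Adra2c at 5.25 ± 3.89 and Drd1 at 4.39 ± 2.75 CPM per kb. Over all mice the other 5 genes averaged below 1, with Drd5 at 0.768, Adra2a at 0.748, Adra1a at 0.743, Drd2 at 0.411 and Drd4 at 0.291 CPM per kb. The place of Drd5 differed between groups, at 0.343 CPM per kb in naïve mice, below Adra2a and Adra1a, and 1.28 CPM per kb in withdrawn mice, and it was above Adra2a in 4 of 11 mice. Neighbours in this order were then compared within each mouse. The log2 ratio of Adrb1 to Adra1b was 0.62 ± 0.63 (SD, n = 11), with Adrb1 higher in 9 of 11 mice, and the ratio of Drd1 to Drd5 was 2.63 ± 3.25, with Drd1 higher in 10 of 11. For each of the 9 pairs of neighbours the mean log2 ratio was smaller than its SD over mice. No step between neighbours was thus larger than 1 SD over mice. The 5 upper genes had medians of 4.82 CPM per kb or more and the 5 lower genes medians of at most 0.790 CPM per kb.

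**Figure D4:**
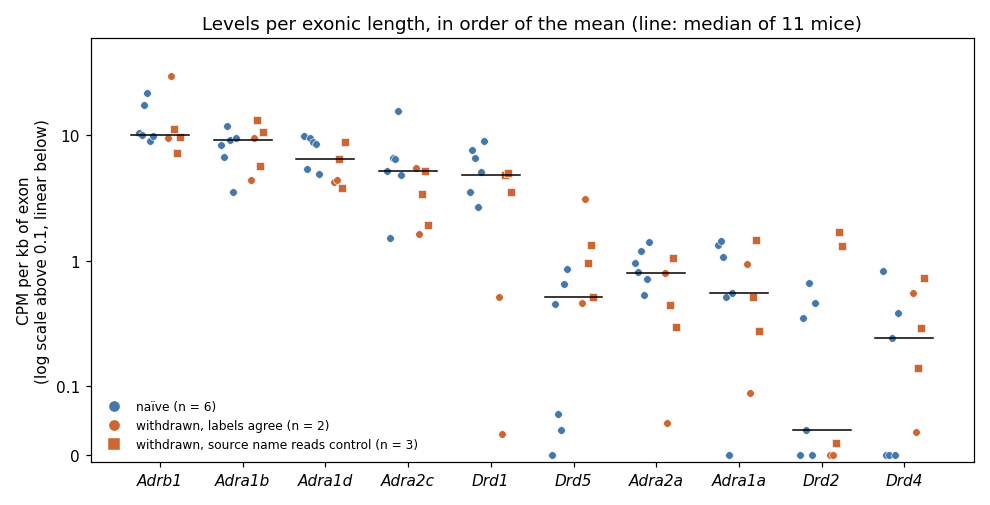
CPM per kb of exon (vertical axis, logarithmic above 0.1 and linear below) of each receptor gene in 11 mice, ordered by the mean. Points are mice in the colors of their groups, and lines are medians. Adrb1, Adra1b, Adra1d, Adra2c and Drd1 have medians of 4.82 or more, and the 5 genes to their right medians of at most 0.790.

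By the G protein they couple to, the summed level of the Gs- and Golf-coupled genes (Drd1, Drd5, Adrb1) was 19.2 ± 4.47 CPM per kb (SD, n = 6) in naïve and 17.5 ± 8.79 (SD, n = 5) in withdrawn mice. The Gq-coupled alpha1 genes summed to 16.9 ± 4.03 and 14.9 ± 4.95 CPM per kb. The Gi- and Go-coupled genes (Drd2, Drd4, Adra2a, Adra2c) summed to 8.13 ± 4.44 and 4.99 ± 2.55 CPM per kb. Each difference of means was smaller than the SD of the naïve group, and the ranges overlapped. Adrb1 and the alpha1 genes thus held most of the receptor RNA measured in both groups, and Adrb1 alone had a median share of 31.7% of the summed CPM per kb of the 6 adrenergic genes described.

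The genes differed in how much they varied between mice of 1 group. The SD of log2 CPM within groups was 0.47 for Adra1d, 0.63 for Adra1b, 0.65 for Adrb1, 0.96 for Adra2c and 1.06 for Adra2a. It was 1.53 for Drd5, 1.72 for Drd4, 1.85 for Drd1, 2.07 for Adra1a and 2.11 for Drd2, beside a median of 0.685 over all genes tested. Genes of like level had median SDs of 0.84 for Adra1d, 0.55 for Adra1b, 0.45 for Adrb1, 0.68 for Adra2c and 1.68 for Adra2a. For Drd5, Drd4, Drd1, Adra1a and Drd2 these medians were 1.72, 1.58, 0.73, 1.41 and 1.61. Adra1d, Adra2a and Drd5 thus varied less than the median of genes of like level, and the other receptors more. For Drd1 it was 0.66 among naïve and 2.68 among withdrawn mice, where mice 1 and 2 stood apart from the 3 with conflicting labels, and for Adra1a it was 2.45 and 1.49. Of the 10 genes, 6 had a read in every mouse and 4 had at least 10 reads in every mouse.

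The genes whose log2 CPM, centred within groups, followed each of the 5 most abundant receptors most closely over the 11 mice are given as a description. For Drd1 they were Tox2 (Pearson r = 0.947, Spearman rho = 0.836) and Edc3 (r = 0.945, rho = 0.836), and for Adra1d Pcbd1 (r = 0.944, rho = 0.909) and Gm12988 (r = 0.910, rho = 0.818). For Adra2c they were Caap1 (r = 0.938, rho = 0.918) and Dnal4 (r = 0.874, rho = 0.764), and for Adra1b Rab11fip5 (r = 0.930, rho = 0.827) and Celsr2 (r = 0.922, rho = 0.709). For Adrb1 they were Fbf1 (r = 0.930, rho = 0.491) and Rnf207 (r = 0.915, rho = 0.682). Each pair had the highest r of 17092 genes compared, and all mice share their library with both genes of a pair. With the 2 mice farthest from the receptor's median left out, r ranged from 0.641 for Dnal4 to 0.928 for Pcbd1, with 0.821 for Tox2, 0.860 for Edc3, 0.786 for Celsr2 and 0.741 for Fbf1.

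Of the other receptor genes of these transmitters, Adrb3 averaged 8.25 ± 3.83 CPM in naïve mice (SD, n = 6) against 7.27 ± 6.93 CPM (SD, n = 5), with a log2 fold change of -0.18 (edgeR adjusted p = 0.973), and Adra2b was below the filter of the edgeR test and had a DESeq2 log2 fold change of 3.08 (SE 1.59, unadjusted p = 0.0527, DESeq2 adjusted p = 0.482).

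The genes upstream and downstream of the receptors were taken as 4 lists. None of their 72 tested genes passed the thresholds with edgeR, beside 0.00585% of all genes tested. With DESeq2, 1 of the 76 list genes with a value passed, Akap12, beside 0.864% of all genes with a count. The counts at an unadjusted p under 0.05 are read against 5.00% higher and 2.22% lower among all genes. Of 10 tested genes of catecholamine synthesis, transport and breakdown, 1 was higher and 1 lower at that level, with a median log2 fold change of 0.38. Slc18a1, a vesicular monoamine transporter, had a log2 fold change of 2.32 at 0.603 and 3.06 CPM, and Gch1, which makes the cofactor of tyrosine hydroxylase, one of 1.10 (edgeR adjusted p = 0.644 and 0.896).

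Of 9 G protein alpha subunit genes, 1 was higher and 1 lower at an unadjusted p under 0.05, with a median log2 fold change of -0.10. Gnaq, the Gq subunit used by alpha1 receptors, had a log2 fold change of -0.37 (SE 0.15) and Gnai3, a Gi subunit, one of 0.53 (SE 0.22), with edgeR adjusted p of 0.567 and 0.614. Gnao1, the Go subunit, had a log2 fold change of -0.17. Of 29 genes of second messenger enzymes none reached an unadjusted p under 0.05, and the median was -0.10. The smallest p among them was that of Ppp1r1b, which encodes the dopamine-regulated phosphatase inhibitor DARPP-32, with a log2 fold change of -0.45 (SE 0.25, edgeR adjusted p = 0.776). The cyclic AMP-dependent kinase genes Prkaca and Prkar1a had log2 fold changes of -0.33 and -0.23.

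Of 24 genes of receptor desensitization and receptor partners, 1 was higher and 1 lower at an unadjusted p under 0.05, with a median of -0.17. Akap12, a kinase anchoring protein, ranged from 0.644 to 16.7 CPM in naïve mice and was 105.6, 5.26, 69.8, 128.7 and 27.7 CPM in withdrawn mice 1 to 5. All withdrawn mice but mouse 2 were above every naïve mouse, and the log2 fold change was 2.80 (SE 0.73). It missed the threshold with edgeR (adjusted p = 0.236) and passed it with DESeq2 (log2 fold change 2.85, adjusted p = 0.0107). Without the 3 mice with conflicting labels it passed with neither tool, with an adjusted p of 0.789 in edgeR and of 0.272 in DESeq2 at a DESeq2 log2 fold change of 2.56. Without withdrawn mouse 2 it passed with edgeR (log2 fold change 3.08, adjusted p = 0.0279), and without any other single mouse it did not. Akap12 is also expressed outside neurons. The summed CPM of 6 fibroblast markers was 1317, 11.4, 672, 920 and 225 in withdrawn mice 1 to 5, against at most 70.9 in any naïve mouse. That of 6 astrocyte markers was 462, 12.8, 378, 749 and 213 CPM, against at most 159.6 in any naïve mouse. All 5 fibroblast markers tested had log2 fold changes above 0. Lum, not tested with edgeR, averaged 1.36 CPM in naïve and 0.91 CPM in withdrawn mice, with medians of 0.23 and 0.67 CPM. Of 5 astrocyte markers tested, 2 did, Gja1 (3.61) and F3 (3.94). Aqp4, Slc1a3 and Aldh1l1 were below 0, at -1.02, -0.63 and -0.13. Gfap, not tested with edgeR, averaged 12.2 CPM in naïve and 1.06 CPM in withdrawn mice. Among withdrawn mice both sums were lowest in mouse 2, as Akap12 was. The part of these cell types in the Akap12 value was not tested. Ncs1, a calcium sensor that binds the D2 receptor, and Caly, a dopamine receptor interacting protein, had log2 fold changes of -0.87 (SE 0.36, edgeR adjusted p = 0.608) and -0.34 (SE 0.16, edgeR adjusted p = 0.707). Without naïve mouse 5, in which Ncs1 stood at 466.1 CPM, its value was -0.38.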

How the data were processed

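RNA of sorted mPFC CRF1+ neurons from 11 mice was measured, 6 naïve and 5 withdrawn, grouped by their titles. The authors amplified cDNA from 160 pg of RNA per mouse, aligned the reads to GRCm38, tallied whole reads per gene and deposited raw counts per gene for each mouse, with no normalization. Amplification from little RNA can add zeros and spread at low levels. Whether counting used strand is not given in the sources used here. Reads tallied to no gene were left out of library sizes, and 42.0% to 81.1% of tallied reads fell on genes.

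From these counts, genes were filtered with edgeR's filterByExpr (minimum count 10, minimum total 15), scaled by TMM and tested with the quasi-likelihood test of edgeR 4.0.16 (R 4.3.3), with p-values adjusted over all 17093 genes. CPM values use the TMM library sizes, and log2 CPM a prior count of 2. Standard errors and 95% intervals were derived from the F statistic. Exonic lengths and positions come from GENCODE M21. DESeq2 1.42.0, limma 3.58.1 voom, other scalings and filters, a replicate block, covariates and leaving out mice were alternatives. Leaving out the 3 mice with conflicting labels, or each mouse, for genes other than the 10 receptors was chosen after seeing the data. On simulated counts with the dispersions of these data, edgeR recovered 134 of 200 genes changed by a log2 value of 3, with 4 false calls, and DESeq2 158, with 52 false calls. No smaller change was simulated, and the fold changes of the 10 receptors ran from -1.05 to 1.88. These recovery counts therefore do not apply to the receptors. No 2 libraries agreed within sampling noise.

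The receptor genes and the lists were chosen with earlier results of these data known. The text names the 10 receptors, the other receptors of these transmitters, every called gene of each list or otherwise the 3 with the smallest p, the sort markers and, for the 5 receptors with the highest level per kb, the 2 genes closest in pattern. Some genes that this rule names are not reported here.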

Additional observations from a re-analysis of the deposited data

Results flagged for a closer look

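In 28 sets of values of 1 receptor gene in 1 group, 4 had a mouse whose gap to the nearest other mouse took most of the range. A rate of 1 set in 20 would give 1.4, but that rate holds for continuous values. The sets of Drd3 and Adra1a rest on 0 counts, so no conclusion is drawn from the comparison. Naïve mouse 5 had a log2 CPM of -2.80 for Adra1a, from 0 counts, below the other 5 naïve mice. Withdrawn mouse 2 had a log2 CPM of 4.30 for Adrb3, from 175 counts, above the other 4 withdrawn mice. For Drd3, naïve mouse 3 stood at -0.95 from 4 counts and withdrawn mouse 4 at -1.36 from 2 counts, while the other mice of their groups had 0 counts.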

How the results depend on the processing

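No receptor gene tested passed the thresholds under any of the 23 alternatives, which tested all 10 except for 4 with 10 counts required in every mouse and 9 in 3 of the fits without 1 mouse. Of 211 fold changes recomputed for them 195 kept their direction, 16 turned and none passed the threshold. Over all genes the edgeR count was 1, against 362 with the DESeq2 Wald test, 137 without a filter on low counts, 30 with 10 counts required in every mouse, 26 with genes detected as a covariate, and 0 with reads outside exons or the GABAergic score as a covariate, without the 3 mice with conflicting labels, or with the replicate block. Leaving out 1 mouse gave 0 to 193, the latter without withdrawn mouse 2. At an unadjusted p under 0.05, edgeR gave 1234 genes in the fit of all mice. Values that turned were Drd2 with voom (-0.89) and without the 3 mice (-6.17), Adra1a with the replicate block (0.0083) and the GABAergic score (0.25), Adra1b without the 3 mice (-0.29) and Adrb1 with voom (-0.39), the block (-0.15), reads outside exons (-0.17) and the GABAergic score (-0.040). Leaving out 1 mouse gave -0.12 to 0.25 for Adra1b and -0.48 to 0.24 for Adrb1. The cause was not tested. The numbers that mice of both groups share belong to different animals. Deviations of same-numbered mice correlated at -0.20 to 0.18, which cannot show whether mice were processed in pairs. For number 5 the correlation was 0.18, beside at most 0.029 with naïve mice of other numbers. For numbers 1 to 4 a naïve mouse of another number correlated more highly. Drd5 had the largest value with the block, 3.44 on the log2 scale (edgeR adjusted p = 0.802). Without some mice Drd2 fell below the filter and 8 of 11 values could be had. Drd2, Drd4 and Drd5 were under 3 counts in several mice, and these were not the shallowest libraries alone.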

Other observations

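Adra2b, below the filter of the edgeR test, had 7.39 CPM in withdrawn mouse 2 and 15.4 CPM in withdrawn mouse 4, against at most 1.65 CPM in the other 9 mice.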
